A study of Mus musculus with 21 samples.

Results

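The 10 genes described here encode milk proteins and components of the secretory mammary epithelium. They were taken by symbol: the caseins Csn1s1, Csn1s2a, Csn2 and Csn3, the whey proteins Wap and Lalba, the mucin-like Glycam1, the transcription factor Elf5, transferrin (Trf) and xanthine dehydrogenase (Xdh). All 10 were found among the 19241 genes listed in each tumour table. RNA was sequenced from mammary tumours of mice of the genotype MMTV-PyMT, kept sedentary or physically active, at week 12 and at week 18, with 3 libraries in each of the 4 groups. All animals, the sedentary ones included, carried the transgene, in which the mouse mammary tumour virus promoter drives the polyomavirus middle T oncogene mainly in mammary epithelium. The labels did not say from which event the weeks were counted, nor what the activity consisted of, and they called the libraries biological replicates without tying them to animals, so that p-values measure the spread between these samples. A tumour piece is bulk tissue, and the control groups contained no normal mammary gland.

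Milk is made by luminal alveolar cells of the mammary gland. In late pregnancy and lactation, prolactin acts through its receptor and the kinase JAK2 on the transcription factor STAT5, which binds at casein and whey protein genes, while ELF5 directs the alveolar fate. Mammary tumours that arise from luminal cells can keep part of this programme, so milk protein RNA in such a tumour can reflect secretory differentiation. That reading was not tested here.

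The caseins lie close together on chromosome 5 of mm10, in the order Csn1s1 (chr5:87666208-87682578, plus strand), Csn2 (chr5:87692624-87699630, minus strand), Csn1s2a (chr5:87774567-87788797, plus strand) and Csn3 (chr5:87925579-87932665, plus strand). Lalba (chr15:98480400-98482721) and Glycam1 (chr15:103562759-103565081) share chromosome 15, both on the minus strand. Wap lies at chr11:6635482-6638637, minus strand, Elf5 at chr2:103411688-103450989, plus strand, Trf at chr9:103204001-103230444, minus strand, and Xdh at chr17:73883895-73950196, minus strand. All are protein-coding genes of the GENCODE M21 annotation. Trf shares 2108 exon bases with the model Gm20425 on the same strand, so reads there cannot be assigned to one of them with certainty.

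Sequences of 250 bases before the RefSeq transcription start (GRCm38.p6) were available for 7 of the 10 genes. The RefSeq start of Csn2 lies 205 bases inside the GENCODE gene given above, and that of Lalba 38 bases inside. The RefSeq starts of Elf5 lie 410 and 12380 bases inside its GENCODE gene, so its windows fall within that gene. The windows were searched on the strand of the gene for TTCNNNGAA, the palindromic core to which STAT factors bind. This pattern is its own reverse complement, so a site that matches on one strand also matches on the other, though its middle letters can differ. A match was found before the RefSeq start of Csn1s1, Csn2 and Glycam1, and none within these windows of Csn1s2a, Wap, Lalba and Elf5. Among all 32851 windows of that length, 7.02% held the motif. A match describes the letters and shows no binding. The sequences are given for the 3 genes with a match, because these genes had the widest spread among tumours, and for Lalba as the milk gene that followed Csn3 most closely. Capitals mark the motif. The sequences read 5′ to 3′ on the strand of the gene. They are Csn1s1 (chr5:87665958-87666207, plus strand), a site of Csn2 (chr5:87699500-87699528, minus strand), Glycam1 (chr15:103565082-103565331, minus strand) and Lalba (chr15:98482722-98482933, minus strand, with the 38 bases next to the start left out).
Csn1s1: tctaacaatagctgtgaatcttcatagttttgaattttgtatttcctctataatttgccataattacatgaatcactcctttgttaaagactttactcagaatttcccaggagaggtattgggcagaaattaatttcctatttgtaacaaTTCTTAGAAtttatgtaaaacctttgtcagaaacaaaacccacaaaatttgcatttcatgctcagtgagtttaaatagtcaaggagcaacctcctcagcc
Csn2: tcacgtagacTTCTTGGAAttgaagggac
Glycam1: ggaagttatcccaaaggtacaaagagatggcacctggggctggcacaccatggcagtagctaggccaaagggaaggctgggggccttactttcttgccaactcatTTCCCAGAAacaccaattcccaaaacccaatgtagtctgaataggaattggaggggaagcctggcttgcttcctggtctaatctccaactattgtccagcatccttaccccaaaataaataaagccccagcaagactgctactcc
Lalba: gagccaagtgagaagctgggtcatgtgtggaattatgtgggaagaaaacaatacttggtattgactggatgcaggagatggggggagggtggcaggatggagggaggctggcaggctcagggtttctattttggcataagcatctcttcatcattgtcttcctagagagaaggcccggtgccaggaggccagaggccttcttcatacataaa
Counted from the RefSeq starts, the motif began 100 bases before the start of Csn1s1 and read TTCTTAGAA. At Csn2 it began 93 bases before the start and read TTCTTGGAA, which places it within an exon of the longer GENCODE model of Csn2, and at Glycam1 it began 145 bases before the start and read TTCCCAGAA.

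The 12 tumour libraries held 20838963 to 28973775 recovered reads. Values below are the authors' normalized counts, reads divided by 1 factor per library, and the factors put both weeks on 1 common scale. The luminal keratins Krt8 (median 30672, lowest 15275, highest 47792) and Krt18 (median 19386) were detected in every tumour, as were all 8 luminal marker genes. Basal and myoepithelial markers such as Acta2 (median 8267) and Myh11 (median 3350) were present too. Active week 12 replicate 3 stood apart from the other 11 libraries. Its summed T cell markers reached 12391 against 184 to 406 elsewhere, its B cell markers 22591 against 27.8 to 175, its high endothelial venule markers 5192 against 73.4 to 424, and its adipocyte markers 355434 against 984 to 80427. Its summed luminal markers were the lowest, at 60310 against 78055 to 150444. Sedentary week 18 replicate 1 stood apart in the milk genes, as described below. The member differences that these libraries moved most are also given without them.

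Together the 10 genes took a sizeable share of the RNA in most tumours. They held 1.95%, 1.63% and 1.60% of the reads in sedentary tumours at week 12 and 1.34%, 2.13% and 0.572% in active ones. At week 18 the shares were 0.211%, 1.63% and 2.03% in sedentary tumours and 1.38%, 1.25% and 2.41% in active ones. The lowest share, in sedentary week 18 replicate 1, had an exact 95% binomial interval of 0.209% to 0.213%, and the highest, in active week 18 replicate 3, one of 2.40% to 2.41%. These intervals cover counting error only. The shares of the groups overlapped. Most of the reads of the 10 genes came from Csn3, Trf and Lalba in every tumour. These genes held 1.89% in sedentary week 12 replicate 1, 0.153% in sedentary week 18 replicate 1 and 2.33% in active week 18 replicate 3.

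Levels among the members were compared per kilobase of the principal transcript, as normalized counts per kb (medians over 12 tumours). Csn3 was highest at 105126, followed by Trf at 67256, Lalba at 12644, Elf5 at 3062 and Xdh at 1876. Csn1s1 (350), Wap (338), Csn1s2a (43.2), Glycam1 (34.9) and Csn2 (31.4) formed the lower part. Neighbours in this order were compared across the 12 tumours with an exact two-sided sign-flip permutation test, adjusted over the 9 pairs. The order was set by the same 12 tumours, so these p-values are no independent support for it. Csn3 and Trf did not differ beyond their spread (adjusted p = 0.169), nor did Csn1s1 and Wap (adjusted p = 0.967), Csn1s2a and Glycam1 (adjusted p = 0.301) or Glycam1 and Csn2 (adjusted p = 0.846). The other 5 steps passed, with Trf above Lalba in 12 of 12 tumours (exact permutation, adjusted p = 0.00439) and Wap above Csn1s2a in 11 of 12 (adjusted p = 0.011). Csn3 and Csn2, both caseins from the same chromosomal cluster, thus stood at opposite ends of the order.

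**Figure D1:**
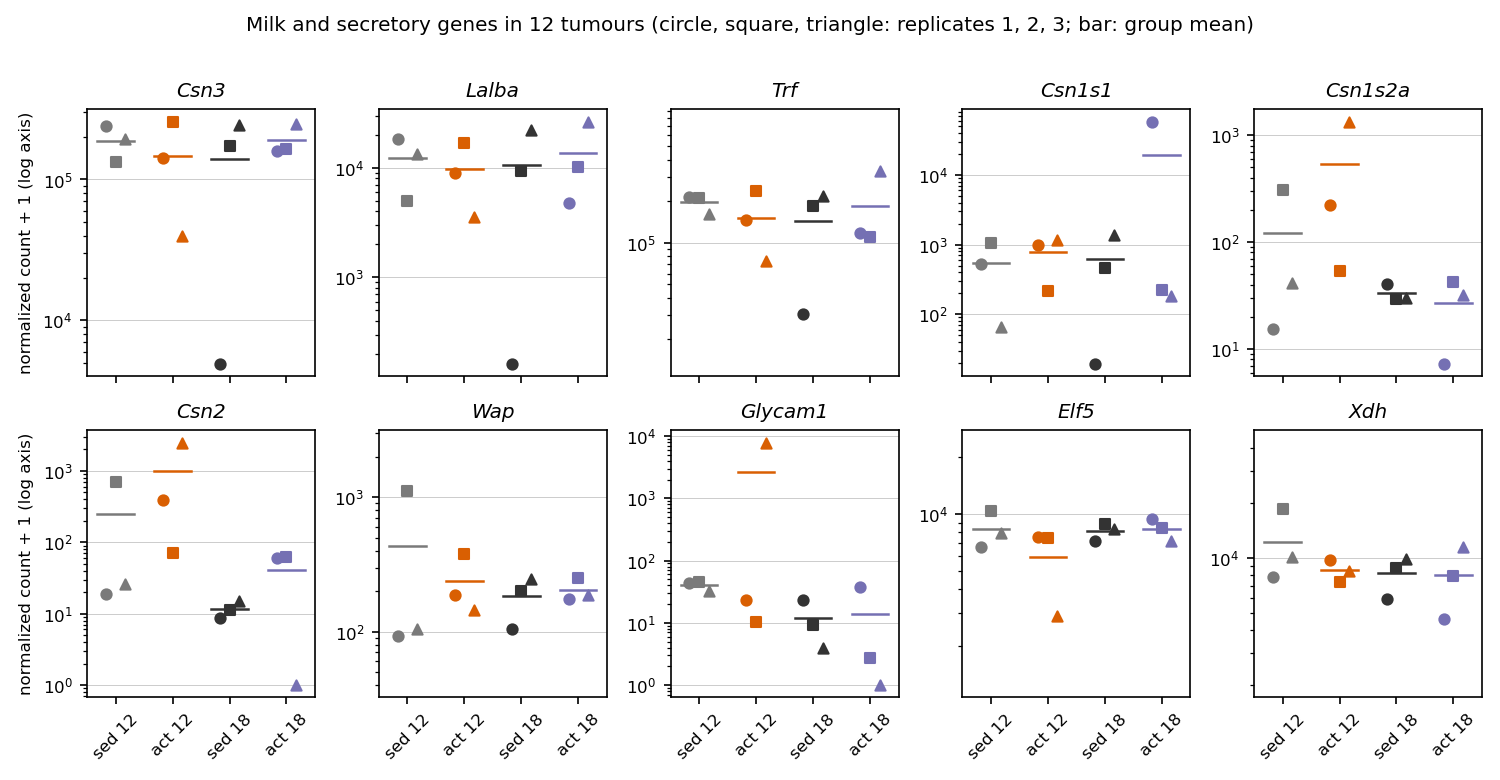
Normalized counts + 1 of the 10 genes in the 12 tumour libraries on log axes, with shapes for the replicates and a bar for each group mean. Csn3, Trf and Lalba were low in sedentary week 18 replicate 1, Glycam1 was high in active week 12 replicate 3 and Csn1s1 was high in active week 18 replicate 1.

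Csn3 encodes kappa-casein, which stabilizes the casein micelle. Its normalized counts were 239246, 132878 and 193243 in sedentary and 141317, 257628 and 39892 in active tumours at week 12. At week 18 they were 4907, 172376 and 241933 in sedentary and 159435, 163187 and 247241 in active tumours. All groups overlapped, and 10 of the 12 tumours lay at 132878 or above. The low tumours were active week 12 replicate 3 and sedentary week 18 replicate 1. By reads, Csn3 was among the 5 highest genes in the other 10 tumours, ranked 35 in the former and 870 in the latter.

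Lalba encodes alpha-lactalbumin, the regulatory subunit of lactose synthase. Its values ran 18399, 5010 and 13306 (sedentary) and 8964, 16735 and 3585 (active) at week 12. At week 18 they ran 161, 9424 and 22281 (sedentary) and 4757, 10073 and 26447 (active). The lowest tumour was again sedentary week 18 replicate 1, which lay 22.3-fold below the next lowest of the other 11 tumours.

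Trf encodes transferrin, an iron carrier secreted into milk and also made by other tissues. Its values were 214420, 212471 and 161068 in sedentary and 145483, 236147 and 74187 in active tumours at week 12. At week 18 they were 30525, 184762 and 218352 in sedentary and 118093, 111023 and 328557 in active tumours. The same pair of libraries was lowest as for Csn3, and the highest was active week 18 replicate 3, where Trf took more reads than any other gene (1.27%).

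Csn1s1 encodes alpha-S1-casein, a calcium-sensitive casein. Its values were 524, 1041 and 63.6 in sedentary and 999, 214 and 1163 in active tumours at week 12. At week 18 they were 18.2, 462 and 1376 in sedentary and 58701, 221 and 182 in active tumours. Active week 18 replicate 1 was 42.7-fold above the highest of the other 11 tumours, and Csn1s1 ranked 17 among all genes there. None of the other caseins had its highest value in that tumour. Csn1s2a was at its lowest there (6.24), while Csn2 (58.3) and Csn3 (159435) lay inside the range of the other tumours. Of 16 other milk protein and fat globule genes, 1 was highest there, Mfge8 (45387, against at most 23530 elsewhere), while 16.5% of all genes were highest in that tumour. All 10 adipocyte genes were lowest there, against 15.7% of all genes. The part of these differences in the Csn1s1 value was not tested.

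Csn2 encodes beta-casein and Csn1s2a an alpha-S2-like casein, both calcium-sensitive. Csn2 stood at 18.0, 700 and 25.3 in sedentary and 388, 70.1 and 2488 in active tumours at week 12, and at 7.66, 10.1 and 13.9 and at 58.3, 60.3 and 0 at week 18. The value of 0 came from no read in active week 18 replicate 3, where a count of 0 allows up to 3 reads. Csn1s2a stood at 14.4, 305 and 40.2 and at 220, 52.5 and 1343 at week 12, and at 39.3, 28.3 and 28.7 and at 6.24, 41.1 and 31.2 at week 18 (sedentary, then active). Both genes were highest in active week 12 replicate 3, followed by sedentary week 12 replicate 2 and active week 12 replicate 1. In active week 12 replicate 3, 26.3% of all genes were highest, as were all 10 adipocyte, 8 T cell and 7 B cell genes. The part of these cell types in the casein values was not tested. In the 6 tumours of week 18 Csn2 did not exceed 60.3 and Csn1s2a did not exceed 41.1.

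Wap encodes the whey acidic protein. It was at 91.2, 1110 and 103 in sedentary and 186, 380 and 144 in active tumours at week 12, and at 104, 198 and 246 in sedentary and 175, 252 and 187 in active tumours at week 18. Sedentary week 12 replicate 2 was 2.92-fold above the highest of the other tumours, which all lay between 91.2 and 380.

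Glycam1 encodes a mucin-like glycoprotein that is secreted into milk and is also a ligand for L-selectin made by high endothelial venules of lymph nodes. It was at 42.0, 44.3 and 31.8 in sedentary and 21.9, 9.27 and 7884 in active tumours at week 12. At week 18 it was at 22.0, 8.10 and 2.97 in sedentary and 36.4, 1.75 and 0 in active tumours. A single tumour, active week 12 replicate 3, was 178-fold above the highest of the other 11. That library was also highest for all 5 listed high endothelial venule genes, all 7 B cell genes and all 8 T cell genes, against 26.3% of all genes. Its Ccl21a, a venule and stromal chemokine, was at 4705 against a median of 46.2 over the 12 tumours, and its Cr2, a B cell receptor for complement, at 2273 against at most 17.9 elsewhere. In the same library 7 of 8 luminal genes were lowest, against 19.2% of all genes. The part of these cell types in the Glycam1 value was not tested.

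**Figure D2:**
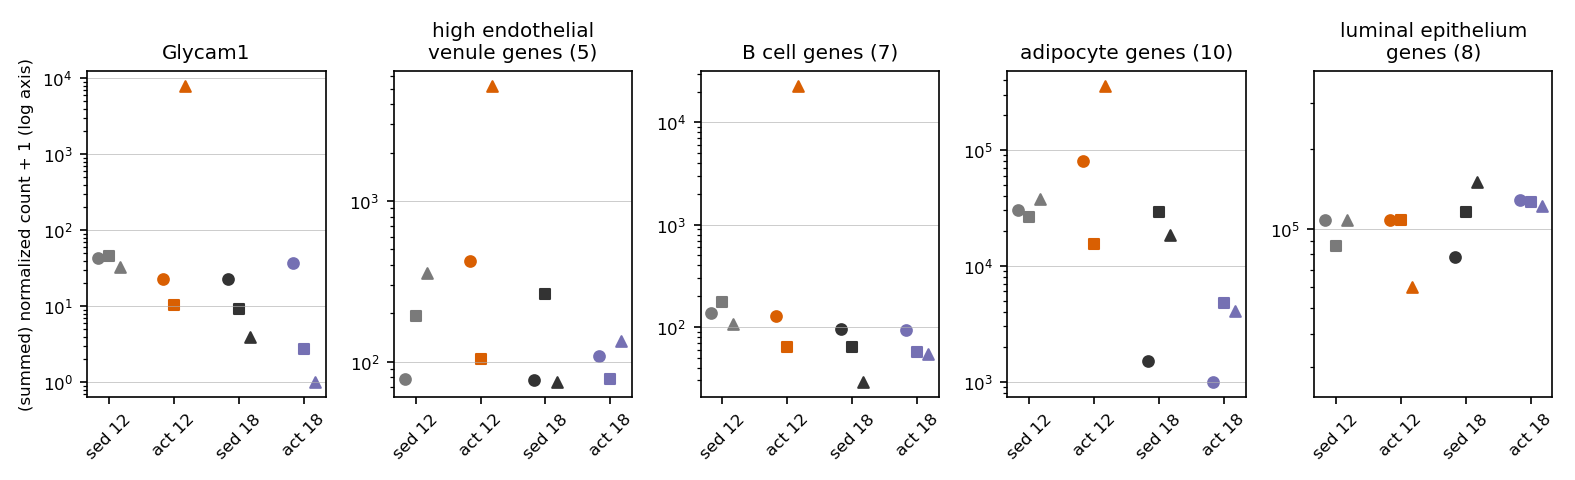
Normalized counts + 1 of Glycam1 and of the summed high endothelial venule, B cell, adipocyte and luminal genes in each of the 12 tumours, on log axes, with circles, squares and triangles for replicates 1, 2 and 3. Active week 12 replicate 3 lies far above the other 11 tumours in Glycam1 (7884) and in the venule, B cell and adipocyte sums, and lowest in the luminal sum.

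Elf5, the transcription factor of alveolar progenitors, varied least of the 10 genes. It was at 6720, 10346 and 7966 in sedentary and 7537, 7453 and 2876 in active tumours at week 12, and at 7173, 8898 and 8339 and at 9427, 8472 and 7225 at week 18. Every tumour except active week 12 replicate 3 lay at 6720 or above. Xdh, which makes an enzyme of purine breakdown that is also needed for the envelope of milk fat droplets, was at 7867, 18580 and 10061 and at 9767, 7380 and 8489 at week 12, and at 5951, 8771 and 9893 and at 4613, 7932 and 11438 at week 18 (sedentary, then active). Its highest value was in sedentary week 12 replicate 2, the tumour in which Wap and Elf5 were highest as well. In that tumour 3 of 10 members and 5 of 16 other milk protein and fat globule genes were highest, against 4.57% of all genes.

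The spread between tumours of the same group separated the milk proteins from these 2 genes. The within-group standard deviation of log2(value + 1) was 3.11 for Csn1s1, 3.01 for Glycam1, 2.58 for Csn2, 2.13 for Lalba, 1.75 for Csn1s2a and 1.72 for Csn3, against a median of 0.446 over all 19241 genes. For Csn1s1, 99.96% of genes had the same or a smaller spread, and for Lalba 99.1%. Wap (1.13) and Trf (1.00) were intermediate. Xdh (0.51) and Elf5 (0.45) were near the median of all genes. In sedentary week 18 replicate 1, where Csn3, Lalba, Trf and Csn1s1 were all lowest, Elf5 was at 7173 and the epithelial adhesion gene Epcam at 17119, both inside the range of the other tumours. The summed luminal markers of that library stood at 78055, and only active week 12 replicate 3 was lower (60310). In that library 9 of 16 other milk protein genes and 7 of 8 macrophage genes were also lowest, against 15.6% of all genes, among them lactoferrin (Ltf, 3432), Muc1 (688) and the milk lipase Cel (3.83). Of 8 luminal genes 1 was lowest there, the keratin Krt19 (416, against at least 4726 elsewhere), and 3 of 8 basal genes were highest there, against 13.0% of all genes. Their part in the milk gene values was not tested. In bulk tumour RNA, fewer cells of a type and less RNA per cell cannot be told apart.

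**Figure D3:**
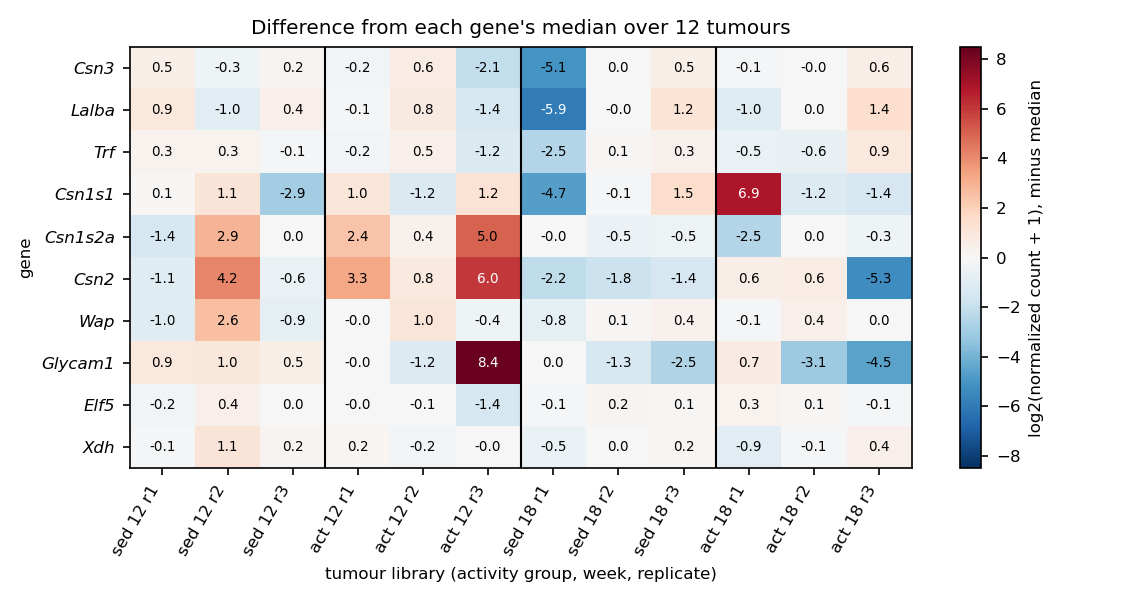
Deviation of each gene from its median over the 12 tumours, on the log2(value + 1) scale, with genes as rows and libraries as columns. Csn3, Lalba and Trf deviate together, while the largest deviations of Csn1s1 and Glycam1 sit in different single libraries.

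Csn3, Lalba and Trf varied together from tumour to tumour. Over the 12 tumours, the correlation of log2 values was r = 0.963 between Csn3 and Lalba (rho = 0.930, permutation, adjusted p = 0.00045 over 45 member pairs), 0.921 between Csn3 and Trf (rho = 0.853, adjusted p = 0.00555) and 0.913 between Lalba and Trf (rho = 0.846, adjusted p = 0.00555). With the 2 tumours farthest from the median of the first gene left out, r was 0.894, 0.640 and 0.648. Within week 12, r between Csn3 and Lalba was 0.905, and within week 18 it was 0.975 (exact permutation, p = 0.0028 each, over 6 tumours). For Csn3 and Trf the values within weeks were 0.918 and 0.921. For Lalba and Trf they were 0.693 at week 12, which did not pass (exact permutation, p = 0.106), and 0.960 at week 18. Lalba was the fifth most like gene to Csn3 among 13637 genes ranked.

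The other caseins did not share this pattern. Csn1s2a and Csn2 were correlated over all tumours (r = 0.758, permutation, adjusted p = 0.0481). Their rank correlation was of similar size but did not pass (rho = 0.727, permutation, adjusted p = 0.106). Without the 2 farthest tumours r was 0.391. The relation also differed between weeks, with r = 0.985 within week 12 and -0.388 within week 18. Of 45 pairs, 4 passed by Pearson and 3 by Spearman correlation, with a median r of 0.222. The lowest r, -0.736, was between Glycam1 and Elf5 (permutation, adjusted p = 0.324).

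**Figure D4:**
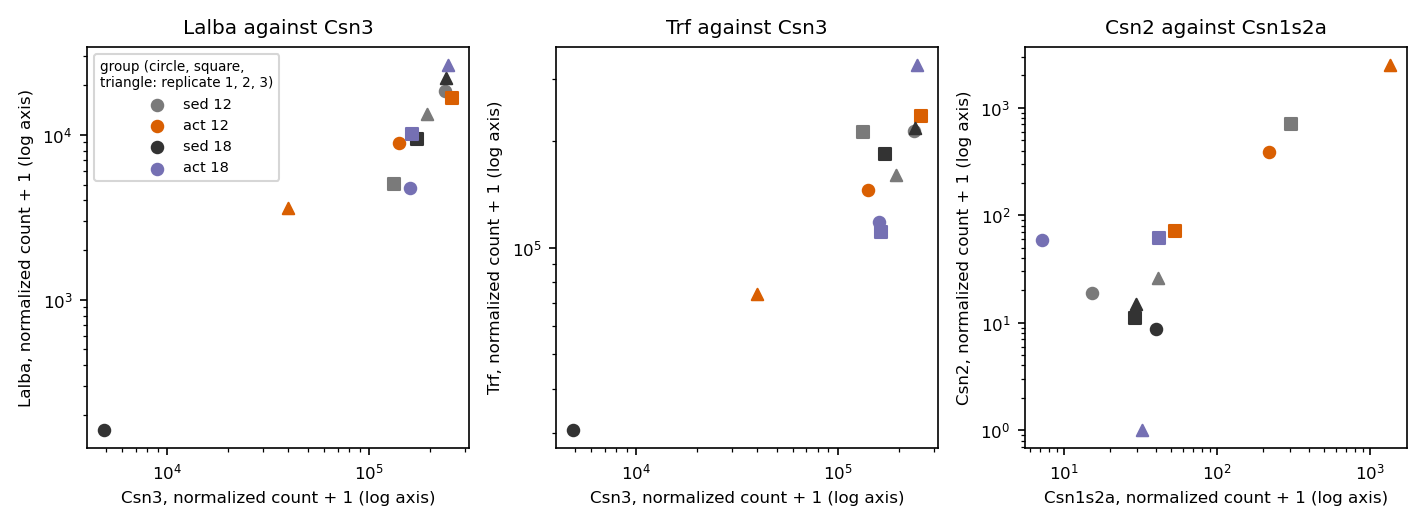
Pairs of members plotted against each other as normalized counts + 1 on log axes, 1 point per tumour, with colour for the group and shape for the replicate. Csn3 and Lalba fall along a line (r = 0.963), whereas the correlation of Csn1s2a and Csn2 was weaker without the 2 tumours farthest from the median.

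A casein score, the mean log2(value + 1) of the 4 caseins without the gene under test, was then compared with each member over the 12 tumours. None of the 10 relations passed (permutation, adjusted over 10); Csn2 had r = 0.613 and adjusted p = 0.262, and Csn3 had r = 0.027. Without sedentary week 18 replicate 1, 4 relations passed, those of Csn2 (r = 0.70), Glycam1 (0.73), Csn3 (-0.81) and Lalba (-0.84). With active week 12 replicate 3 left out instead, none of these 4 passed, and r was 0.55, 0.33, 0.28 and 0.38. Within weeks the sign for Csn3 differed, with r = -0.857 at week 12 (exact permutation, unadjusted p = 0.0153) and 0.447 at week 18. Lalba showed the same, with -0.908 (exact permutation, unadjusted p = 0.025) and 0.568. Among the genes most like the casein score, of 13628 ranked, were Cel (r = 0.877), Syt7 (0.877), Pramef8 (0.876) and Ttyh2 (0.875), given as a description over 12 tumours.

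Active and sedentary tumours at week 12 showed no called difference in any of the 10 genes. By limma on log2(value + 1) with Benjamini-Hochberg adjustment over 19162 genes, 99 genes (0.517%) passed the threshold of 0.05, and 783 (4.09%) had an unadjusted p under 0.05, none of them a member. Groups without overlap were found for 9.13% of genes and for 0 of 10 members. The member differences, active minus sedentary, ran from -0.69 for Csn3 to 2.54 for Csn2, with a median of -0.21 beside 0.012 over all genes, and 4 of 10 were positive. For Csn2 the standard error was 1.91 and the 95% interval -2.25 to 7.33 (limma, adjusted p = 0.970), for Csn1s2a the difference was 2.12 and for Glycam1 1.62. Without active replicate 3 these became 1.24, 0.91 and -1.38, and those of Csn3 and Lalba moved from -0.69 and -0.40 to 0.059 and 0.19. Of the marker lists, 1 held calls in this comparison: 8 of 10 skeletal muscle genes, a list led by Myh4 and Acta1, were lower in active tumours, such as Myh2, a fast myosin heavy chain, by -5.34 (SE 0.37, adjusted p = 0.0108), Pvalb by -7.37 and Tnnc2 by -7.43, while their summed value ranged from 56514 to 120019 in sedentary and 320 to 1407 in active tumours. Without active replicate 3, 1 muscle gene passed and the median of the muscle genes was -6.97. The part of muscle RNA in the milk gene values was not tested.

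At week 18 no member was called between active and sedentary tumours either. Of 18939 genes tested, 0 (0%) passed by limma and 1131 (5.97%) had an unadjusted p under 0.05, and edgeR called 0 and DESeq2 52, with no member among them. Groups did not overlap for 13.6% of genes and for 0 of 10 members. Differences ran from -1.01 for Glycam1 to 2.54 for Csn1s1, with a median of 0.34 (0.0091 over all genes) and 7 of 10 positive. The sign for Glycam1 depended on the scale, since its mean was 11.0 in sedentary and 12.7 in active tumours, and it was 0.11 without active replicate 3. Csn1s1 had a standard error of 2.81 and an interval of -4.48 to 9.55 (limma, adjusted p = 0.854), and without active replicate 1 its difference was -0.19. Csn3 (1.66), Lalba (1.74) and Trf (0.60) became -0.13, -0.42 and -0.30 without sedentary replicate 1. Elf5 had the tightest estimate, 0.039 with an interval of -0.41 to 0.49 (limma, adjusted p = 0.968). In the authors' deposited table for week 18, the log2 fold change of Csn3 was 0.44 with an adjusted p of 0.967, and that of Csn2 1.97 with an adjusted p of 0.829.

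**Figure D5:**
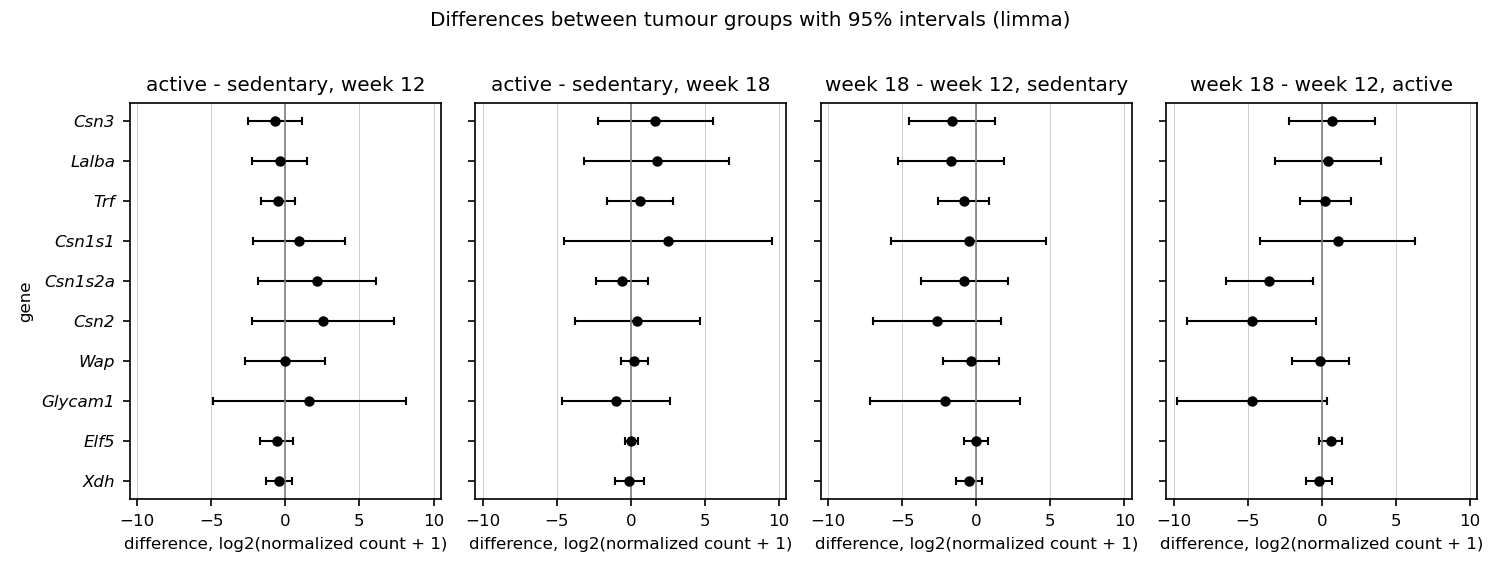
Differences of the 10 genes between activity groups in each week and between weeks in each activity group, on the log2(value + 1) scale, with limma 95% intervals. Intervals are wide for the caseins, Lalba and Glycam1 and narrow for Elf5, and those of Csn1s2a and Csn2 for active tumours between weeks lie below 0 without passing the adjusted threshold.

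Week 18 was compared with week 12 within each activity group over all 12 libraries. In sedentary tumours all 10 members had negative differences, from -2.64 for Csn2 to -0.019 for Elf5, with a median of -0.84 beside -0.016 over all genes. The sign for Csn1s1 (-0.51) held on the log2 scale only, since its mean was 543 at week 12 and 619 at week 18, and without sedentary week 18 replicate 1 its difference was 1.28. None passed by limma, where 1 of 19241 genes (0.0052%) did and 700 (3.64%) had an unadjusted p under 0.05. Csn2 and Glycam1 (-2.09) did not overlap between weeks, 2 of 10 members against 10.3% of genes. Without sedentary week 18 replicate 1 the differences of Csn3, Lalba and Trf were 0.16, 0.44 and 0.048 in place of -1.64, -1.72 and -0.86, and the median of the members was 0.030. Without sedentary week 12 replicate 2, Csn2 was at -0.99, Csn1s2a at 0.38 and Wap at 0.82. Other cell types differed in the same comparison without passing: the median was -4.73 for skeletal muscle genes, with 10 of 10 not overlapping, -1.92 for adipocyte genes and -2.06 for B cell genes. With sedentary week 18 replicate 1 left out, these medians were -3.47, -0.55 and -2.26. The part of these cell types in the member differences was not tested.

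In active tumours Csn1s2a and Csn2 lay lower in all 3 tumours of week 18 than in any of week 12, without passing the adjusted threshold. By limma, the difference was -3.55 for Csn1s2a (SE 1.31, adjusted p = 0.237) and -4.74 for Csn2 (SE 1.94, adjusted p = 0.257). These were the 2 of 10 members without overlap, a smaller share than the 24.8% among all genes. They were also the members with an unadjusted p under 0.05, a level reached by 3411 genes (17.7%), while 3 genes (0.0156%) passed. Glycam1 differed by -4.71 (limma, adjusted p = 0.299). Without active week 12 replicate 3, Csn1s2a was at -2.34 and Glycam1 at -1.71, and without active week 18 replicate 3, which held no Csn2 read, Csn2 was at -2.77. Adipocyte genes were lower without overlap in 10 of 10 cases (median -4.97), T cell genes had a median of -2.38, B cell genes -3.88 and luminal genes 0.57 with 5 of 8 not overlapping, all with 0 calls. Without active week 12 replicate 3 these medians were -3.85, -0.61, -1.20 and 0.22. The part of these cell types in the casein values was not tested. DESeq2 on recovered reads called Csn1s2a (-4.36, adjusted p = 0.00488), the single call among 910 member values under the alternatives, in a comparison where that tool called 1681 genes. The median over members was 0.076 beside -0.034 over all genes.

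The activity effect did not differ detectably between weeks for any member. By limma, 2 of 19241 genes (0.0104%) passed for this difference, with 1217 (6.33%) at an unadjusted p under 0.05, and 0 of 10 members did so. The values of Csn1s2a (-2.73), Glycam1 (-2.62) and Csn2 (-2.09) were negative, and those of Csn3 (2.35), Lalba (2.14), Csn1s1 (1.59) and Trf (1.11) positive, each with an interval that included 0. The comparisons share libraries, so they are not independent of each other.

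Other genes of the secretory pathway were read from lists of marker genes. Among 16 other milk protein and fat globule genes, 0 passed by limma in any of the 5 comparisons, with medians of -0.11 and 0.16 for activity at weeks 12 and 18. The highest were Ltf, an iron-binding milk protein (3432 to 58902), and Mfge8 (8421 to 45387). The 12 genes of lactose and milk lipid synthesis, led by the fatty acid synthase Fasn (8470 to 72937) and the lipogenic factor Srebf1 (10537 to 24948), gave 0 calls and medians of 0.077 and 0.051. Their sum was highest in active week 12 replicate 3 (139175, against 57556 to 99147 elsewhere), as was the adipocyte sum. The part of adipocytes in these values was not tested. The 14 genes of the prolactin and STAT5 pathway, led by Ehf (median 15779) and Nfib (median 14405), gave 0 calls and medians of 0.019 and -0.086. The luminal list had medians of -0.31 and 0.23 and the basal list -0.68 and -0.27, each with 0 calls. For the cell types outside the epithelium, adipocyte genes had medians of 1.27 and -1.80, led by Cfd (228 to 139572) and Fabp4 (248 to 71994), T cell genes 1.81 and 0.042, led by Lck and Cd8a, and B cell genes 2.06 and -0.32, led by Cd79a. High endothelial venule genes (1.53 and 0.32, the latter over 3 genes, led by Ccl21a and Fut4) and macrophage genes (0.028 and 0.10, among them C1qa) likewise gave 0 calls. Several week 12 medians moved without active replicate 3, to 0.12 for adipocyte, 0.095 for T cell, -0.43 for B cell, 0.024 for venule and -0.0018 for luminal genes. The median became -0.12 for lactose and milk lipid synthesis genes and -0.10 for prolactin and STAT5 pathway genes. Without sedentary replicate 1, the week 18 median was -0.58 for the other milk protein genes, -3.15 for adipocyte, -0.0091 for luminal and 0.29 for B cell genes.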

How the data were processed

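RNA of the mammary tumours was extracted with TRIzol and made into libraries with a stranded mRNA kit, per the labels' protocols. The authors deposited normalized counts per gene, a signal in which whole reads were divided by 1 factor per library, with a log2 fold change, p-value, adjusted p-value, its −log10 and test statistic (a score). The label descriptions name DEBrowser, and the submitters' processing notes name mm10. The aligner, counter and annotation are not given in the sources used here. All deposited values returned whole reads (tolerance 0.001). The factors of both tables equalled a median-of-ratios scaling of all 12 tumours over 16870 genes, so weeks were compared directly.

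The main test was limma 3.58.1 in R 4.3.3 (no trend) on log2(value + 1), with Benjamini-Hochberg adjustment at 0.05, for genes whose mean reached 1 in any group. On that scale changes of low genes come out too small. Activity effects used the 6 libraries of a week, and week effects and the difference of activity effects a fit of 12. Alternatives were other pseudocounts (0.1 and 5), no filter, TMM, edgeR 4.0.16 and DESeq2 1.42.0 on recovered reads, the replicate block, each library left out and, chosen after seeing the data, limma with trend and leaving out 2 libraries together. Correlations used 100000 resamples. On simulated data limma recovered 84.5% of 200 genes changed by 3 on the log2 scale at week 12 (19092 genes), 83.5% at week 18 (18754 genes) and 66.5% for the difference of effects (19216 genes). Other calls numbered 15, 10 and 7. These rates are over all changed genes. The within-group spread was 3.11 for Csn1s1 and 2.58 for Csn2 against a median of 0.446, so the rates do not hold for members with such spread.

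The members and the lists were chosen with earlier results of these data known. All members were named, with the 2 highest genes of each list, up to 4 called genes per list and the 5 genes most like the casein score, except that some of these genes are not reported here. Other genes were named after their values were seen. Same-numbered libraries deviated together weakly at week 18, with correlations of 0.164, 0.159 and 0.139 between sedentary and active tumours. These met the rule for pairing that all exceed 0.1, and no other comparison met it. The labels state no pairing, and the main test at week 18 did not use one. The 9 libraries of hematopoietic stem cells were not used here.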

Additional observations from a re-analysis of the deposited data

How the results depend on the processing

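No member was called under any alternative, except Csn1s2a for active tumours between weeks by DESeq2 (1 member). With each library left out in turn, called genes ran from 9 to 71 for activity at week 12 and 0 to 5 at week 18, 1 to 9 and 0 to 87 between weeks in sedentary and active tumours, and 0 to 23 for the difference of effects. The median of the members ran from -0.37 to 0.54, -0.22 to 0.57, -1.42 to 0.030, -0.24 to 0.31 and -0.069 to 0.82 in that order. Leaving out active week 12 replicate 3 and sedentary week 18 replicate 1 together gave medians of 0.030 and -0.21 for sedentary tumours between weeks and for the difference of effects, and 2, 6 and 1 called genes for sedentary and active tumours between weeks and the difference of effects.

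Counts of called genes moved most with the tool: DESeq2 gave 208, 52, 79, 1681 and 172 against 99, 0, 1, 3 and 2 by limma. Between weeks in sedentary and active tumours and for the difference of effects, edgeR and limma with trend both gave 0. A pseudocount of 0.1 gave 5 at week 18 and 6 between weeks in active tumours, and one of 5 gave 9, 0 and 4 in the last 3 comparisons. With the replicate block, the count was 0 at week 12, 0 between weeks in active tumours and 0 for the difference of effects. At week 18, where same-numbered libraries met the rule for pairing, the block changed no call. The cause of these shifts was not tested.

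Of the relations to the casein score, 0 to 4 passed with a library left out. With active week 12 replicate 3 left out none passed, and those of Csn3 and Lalba stood at r = 0.28 and 0.38. Without sedentary week 18 replicate 1, those of Csn3 and Lalba reversed to r = -0.81 and -0.84 (permutation, adjusted p = 0.0066 and 0.0088; over all libraries left out in turn they ran up to 0.28 and 0.38), and Csn2 (0.70) and Glycam1 (0.73) passed. Depth does not limit the abundant members, but Csn2, Csn1s2a and Glycam1 rest on few reads in some tumours, down to 0 reads for Csn2 and Glycam1 in active week 18 replicate 3.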

Other observations

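Several genes outside the lists followed single members closely and were picked after their values were seen, as a description over 12 tumours. Among 13628 genes, Phactr1 (r = 0.986), Tceal8 (0.971) and Rims3 (0.971) were most like Csn3, Anxa7 (0.973) was most like Lalba, and Cr2 (0.976) and Gba2 (0.970) were most like Glycam1. Phactr1 ranged from 72.8 to 1412 normalized counts and was second among the genes most like Lalba (r = 0.964). The ratio of Csn3 to Lalba ran from 9.35 to 33.5 over the 12 tumours, and that of Csn1s1 to Csn1s2a from 0.463 to 9404.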
